A study of Mus musculus with 4 samples.

Results

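The miR-193 and miR-365 clusters were represented on the mouse miRNA array by 3 miRNAs, mmu-miR-193, mmu-miR-193b and mmu-miR-365. They were taken by exact match of the array's own miRNA name, with the star strands left out, from 611 mouse miRNAs in all. Each was followed over genotype and time of day in mouse liver. The array name mmu-miR-193 is an older name: RefSeq lists mmu-mir-193 as a synonym of the gene Mir193a, and mmu-miR-193 is read here as its 3p arm, miR-193a-3p.

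The study compared male *Clock* mutant (*Clock*Δ19) mice with wild type (WT) mice at zeitgeber time 2 (ZT2) and ZT14, that is 2 h and 14 h after lights on. *Clock*Δ19 is a mutation of the core clock gene *Clock* whose protein still joins its partner BMAL1 but activates their target genes poorly. Each genotype was sampled at each time, which gave 4 groups, all aged 6 to 8 weeks and kept for 2 weeks in 12 h of light and 12 h of darkness with free access to food. The mutation is carried in every tissue, so the liver was not the only organ altered. The liver RNA of 3 mice was pooled for each group and hybridized to 1 Agilent array read in 1 colour. There was therefore 1 measurement per group and no replicate, and the spread between mice is unknown.

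A microRNA (miRNA) is cut from a hairpin precursor and pairs with messenger RNAs mainly through its seed, the bases 2 to 8 from its 5′ end, which lowers their stability and translation. A mammalian miR-193 gene lies next to a miR-365 gene at each of the pair of genomic places that carry these families, and neighbouring miRNA genes can be cut from a shared primary transcript. The miR-193b and miR-365 cluster is best known from brown adipocytes, where it is abundant, and miR-193 family members are known to repress *Mcl1*, a survival factor, and *Plau*, the urokinase plasminogen activator.

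The mature sequences that bear the members' names are shown because they show how far the members resemble each other. The scanner files give no probe sequence, so the match of array name to sequence rests on the names alone. They come from RefSeq (build GRCm38.p6), run 5′ to 3′, and carry the seed in capitals.
mmu-miR-193a-3p: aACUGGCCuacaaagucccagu
mmu-miR-193b-3p: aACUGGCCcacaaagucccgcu
mmu-miR-365-3p: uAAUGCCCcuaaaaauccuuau
The first lies at chr11:79712009-79712030 on the plus strand and the second at chr16:13449570-13449591 on the plus strand. The third is encoded at both places, at chr11:79726467-79726488 and chr16:13453895-13453916, again on the plus strand. The miR-193a-3p and miR-193b-3p sequences are identical in 19 of 22 bases. Counted from 1 at the 5′ end of miR-193a-3p, they differ by U9C, A20G and G21C, all outside the seed. Among 1679 mature mouse miRNA names in the RefSeq table, the seed of miR-193 was found in 2, miR-193a-3p and miR-193b-3p, and the seed of miR-365-3p in 1, itself. No further miRNA of the array was added for a shared seed.

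The 4 precursors are shown to place these arms, with the 3p arm in capitals.
Mir193a: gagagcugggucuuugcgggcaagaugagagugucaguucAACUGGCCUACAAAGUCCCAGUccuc
Mir365-2: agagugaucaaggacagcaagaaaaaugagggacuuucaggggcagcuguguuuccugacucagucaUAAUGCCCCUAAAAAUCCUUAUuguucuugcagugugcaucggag
Mir193b: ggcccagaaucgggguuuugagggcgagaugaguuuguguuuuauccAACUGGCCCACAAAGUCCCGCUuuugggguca
Mir365-1: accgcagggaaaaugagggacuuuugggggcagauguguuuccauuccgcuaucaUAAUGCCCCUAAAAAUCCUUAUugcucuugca
Mir193a (chr11:79711969-79712034) and Mir365-2 (chr11:79726400-79726511) are 14365 bases apart, on the same strand. Mir193b (chr16:13449523-13449601) and Mir365-1 (chr16:13453840-13453926) are 4238 bases apart, also on the same strand. In the RefSeq annotation, Mir193a and Mir365-2 overlap no other gene, and the nearest protein-coding genes are *Rab11fip4* and *Utp6*. Mir193b and Mir365-1 both lie within the spans of the long non-coding RNA genes Gm32817 and Gm53058, between *Mrtfb* and *Parn*. Since the arm miR-365-3p is the same from both places, the signal of mmu-miR-365 could not be divided between chromosome 11 and chromosome 16.

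Of the 611 mouse miRNAs, the WT arrays detected 193 at ZT2 and 138 at ZT14, and the mutant arrays 161 and 142, with 123 detected on all 4. Negative control spots averaged 5.24 to 9.72 intensity units, and no spot was saturated. The hepatocyte miRNAs miR-122, miR-192 and miR-194 were detected on all 4 arrays. For comparisons between arrays, each signal was expressed relative to its array's 75th percentile across these 123 miRNAs, which was lowest for WT at ZT14 (339.9 units) and 503 to 537 units on the other arrays.

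The array gave signal for mmu-miR-193 and mmu-miR-365 in every group and none above background for mmu-miR-193b. Each of the 3 miRNAs had 20 spots per array, 10 for each of 2 probes. All 20 spots of mmu-miR-193 and all 20 of mmu-miR-365 were well above background on each of the 4 arrays. For mmu-miR-193b, 0 of 20 spots were well above background on each array, and the scanner software called it detected on 0 of 4 arrays. The 3 other ways of calling detection also gave 0 arrays.

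The mean intensity of mmu-miR-193b was 1.81 units in WT at ZT2, -0.82 in the mutant at ZT2, -0.68 in WT at ZT14 and 2.52 in the mutant at ZT14. On each array the negative control spots averaged more than this, with 5.48, 5.24, 8.32 and 9.72 units in the same order. The level of mmu-miR-193b has therefore only an upper bound on each array, and no ratio between groups can be given for it. The single mature arm of the chromosome 16 cluster that differs from the chromosome 11 cluster and had a 3p probe was thus not well above background in any group.

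The array also held probes for the other arm of Mir193a, named mmu-miR-193* and read here as miR-193a-5p. It was detected on 0 of 4 arrays, with mean intensities between -4.45 and 0.47 units. Of its 20 spots, 1 was well above background in WT at ZT2 and 0 on the other arrays. Of its 4 probes, 1 had a mean above that of the negative control spots on 3 arrays, with 7.99 units in WT at ZT2, 10.6 in the mutant at ZT2 and 15.4 in the mutant at ZT14, and 5.04 in WT at ZT14, where the controls averaged 8.32. None of the spots of that probe was well above background.

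**Figure D1:**
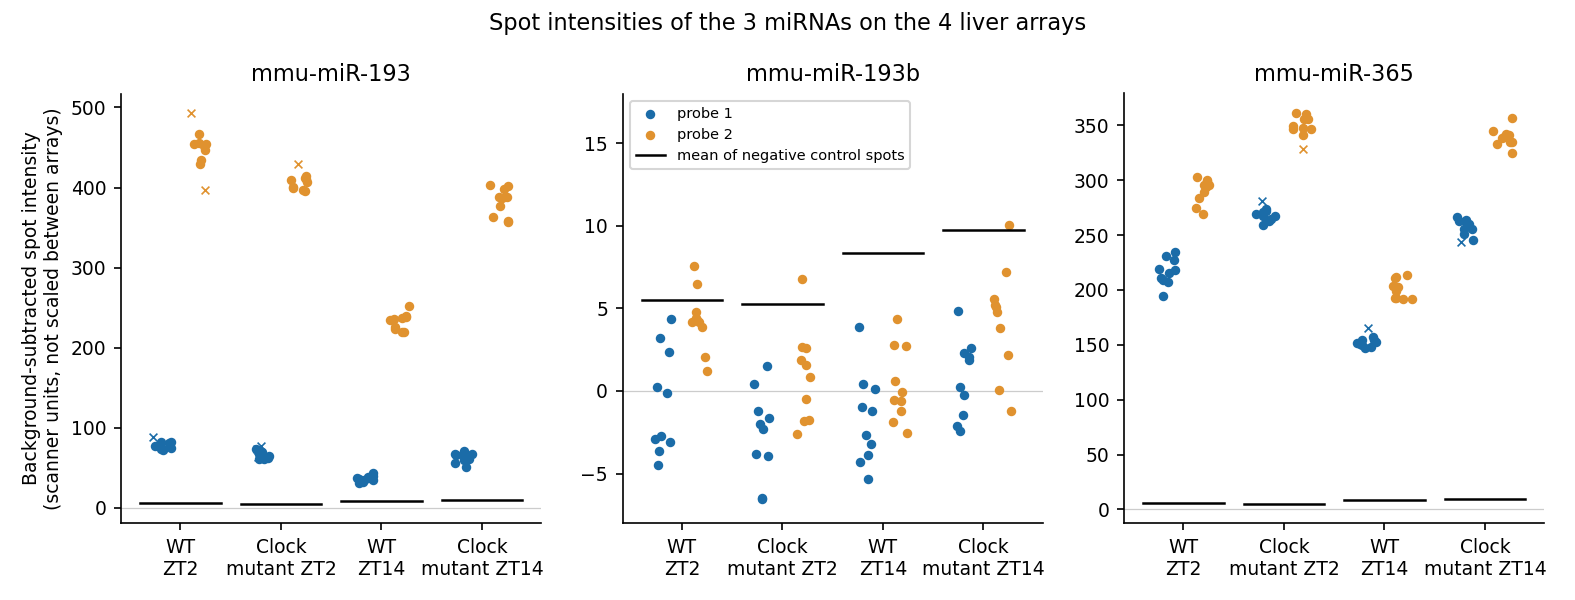
Background-subtracted intensity of each of the 20 spots (y axis, scanner units before scaling, a separate scale in each panel) for the 3 miRNAs on the 4 arrays (x axis). Colours mark the 2 probes of a miRNA, crosses are spots flagged as outliers, and black lines are the mean of the negative control spots. All spots of mmu-miR-193 and mmu-miR-365 lie above the line, and the mean of mmu-miR-193b lies below it on every array.

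Under this scaling, mmu-miR-193 followed the time of day and not the genotype in its order over the 4 arrays, an order also found in 6 of 9 other settings and lost with the 75th percentile over all 611 miRNAs, with median scaling and with quantile normalization. Before scaling, its mean intensity was 263 units in WT at ZT2, 236 in the mutant at ZT2, 134 in WT at ZT14 and 223 in the mutant at ZT14. As a percentage of the 75th percentile of its array, its level was 49.0% in WT at ZT2, 46.8% in the mutant at ZT2, 39.5% in WT at ZT14 and 41.6% in the mutant at ZT14. Both ZT2 arrays were above both ZT14 arrays, and the genotypes lay close together at each time.

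On the log2 scale, the step from the lower ZT2 array to the higher ZT14 array was 0.17, against an SD between repeated spots of 0.13 for that difference. The step between the genotypes was 0.07 at ZT2 (spot SD 0.09) and 0.07 at ZT14 (spot SD 0.16), so neighbours in the order did not differ beyond their spot spread within a time point. The SD between spots is the technical spread of single spots on 1 array, not the error of their mean, and says nothing of the spread between mice. The order by time was not particular to mmu-miR-193. Under this scaling miR-192 had log2 levels of 2.93 and 3.03 at ZT2 against 2.82 and 2.87 at ZT14 (WT, then mutant). miR-194 had 1.29 and 1.46 against 1.27 and 1.18. The median ratio of ZT14 to ZT2 over the 123 miRNAs was also below 0, at -0.13 in WT and -0.17 in the mutant.

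mmu-miR-365 had both mutant arrays above both WT arrays under this scaling and in 9 of 9 other settings. Under this scaling its order differed from that of mmu-miR-193 only in the place of the WT array at ZT2. That array was the highest for mmu-miR-193 and the lowest for mmu-miR-365. On the remaining arrays both miRNAs were highest in the mutant at ZT2, then in the mutant at ZT14, then in WT at ZT14. The mean intensity of mmu-miR-365 was 253 units in WT at ZT2, 309.6 in the mutant at ZT2, 176 in WT at ZT14 and 298 in the mutant at ZT14. Its level as a percentage of the array's 75th percentile was 47.2% in WT at ZT2, 61.5% in the mutant at ZT2, 51.9% in WT at ZT14 and 55.7% in the mutant at ZT14. The mutant array was the higher of the pair at both times, and the WT array at ZT2 was the lowest of the 4. From the highest level to the lowest, the steps were 0.14, 0.10 and 0.14 on the log2 scale, each larger than its spot SD of 0.05, 0.06 and 0.09. This order of the arrays was not particular to mmu-miR-365. Under this scaling miR-23b had log2 levels of 0.42 and 0.34 in the mutant against 0.23 and 0.30 in WT (ZT2, then ZT14). miR-24 had 0.41 and 0.33 against 0.28 and 0.32.

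**Figure D2:**
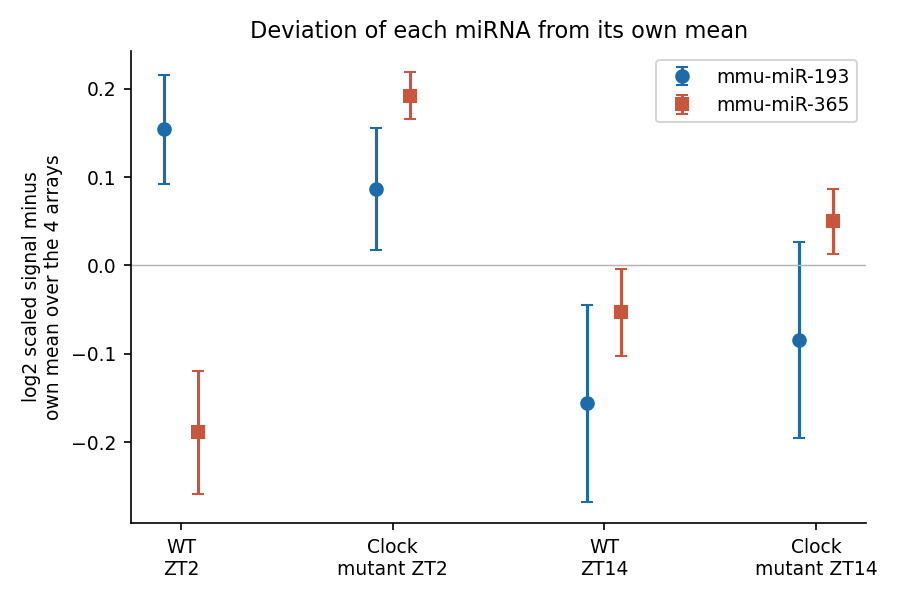
Difference of the log2 scaled signal of mmu-miR-193 (circles) and mmu-miR-365 (squares) from its own mean over the 4 arrays (y axis), for each array (x axis). Bars are the SD between repeated spots of 1 array, and no bar shows the spread between mice. Under this scaling, mmu-miR-193 lies above its mean on both ZT2 arrays and below it on both ZT14 arrays, while mmu-miR-365 lies above its mean on both mutant arrays.

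The ratios of mutant to WT ask whether the levels differed between the genotypes at a given time. For mmu-miR-365 the log2 ratio was 0.38 at ZT2 (1.30-fold higher in the mutant, spot SD 0.07) and 0.10 at ZT14 (1.07-fold, spot SD 0.06). At ZT2, 6 of the 160 miRNAs detected on both arrays had a higher ratio than mmu-miR-365 and 153 a lower one, with a median over all of -0.07. At ZT14 it lay nearer to the middle, with 34 of 123 miRNAs higher and 88 lower. Both of its probes gave a higher signal in the mutant, by 0.37 and 0.40 at ZT2 and by 0.10 and 0.11 at ZT14. The size of these ratios, but not their direction, depended on the processing: over the 10 alternatives run, which changed the scaling, the background correction, the summary of probes or the outlier spots, or used the deposited table, the log2 ratio ranged from 0.16 to 1.19 at ZT2 and from 0.04 to 0.87 at ZT14.

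For mmu-miR-193 the log2 ratio of mutant to WT was -0.07 at ZT2 (0.955-fold, spot SD 0.09) and 0.07 at ZT14 (1.05-fold, spot SD 0.16), both within the spot spread. At ZT2 this was the median of the 160 miRNAs, with 82 higher and 77 lower. Its probes gave -0.13 and -0.06 at ZT2 and 0.12 and 0.06 at ZT14.

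Under this scaling none of these ratios reached 2-fold, the threshold named in the methods. In the deposited log2 table, where the median of the 123 miRNAs was 0.80 at ZT2, mmu-miR-365 passed it at ZT2 with a log2 ratio of 1.19. Over all miRNAs detected on both arrays, a difference of at least 2-fold in either direction was seen for 4 of 160 (2.5%) at ZT2 and for 8 of 123 (6.5%) at ZT14.

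The ratios of ZT14 to ZT2 ask how the levels differed between the early light and the early dark phase. For mmu-miR-193 the log2 ratio was -0.31 in WT (0.807-fold, spot SD 0.13) and -0.17 in the mutant (0.888-fold, spot SD 0.13). The median over all miRNAs was also below 0 under this scaling, at -0.12 in WT and -0.16 in the mutant, and with the median of the 123 miRNAs as the scale the values for mmu-miR-193 became -0.09 in WT and 0.03 in the mutant. In WT, 104 of 137 miRNAs had a higher ratio than mmu-miR-193, and in the mutant 75 of 140 did.

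For mmu-miR-365 the log2 ratio of ZT14 to ZT2 was 0.14 in WT (spot SD 0.09) and -0.14 in the mutant (spot SD 0.05). In WT, 14 of 137 miRNAs had a higher ratio, while in the mutant it lay close to the median of all. With the median of the 123 miRNAs as the scale these values were 0.36 in WT and 0.06 in the mutant, and without scaling -0.52 and -0.05, so the direction of the time difference turned with the scaling in both genotypes. Under this scaling no ratio of ZT14 to ZT2 for either miRNA reached 2-fold (with spike-in scaling, mmu-miR-193 in WT did, at -1.13 on the log2 scale), a size seen for 5 of 137 miRNAs (3.65%) in WT and 9 of 140 (6.43%) in the mutant.

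**Figure D3:**
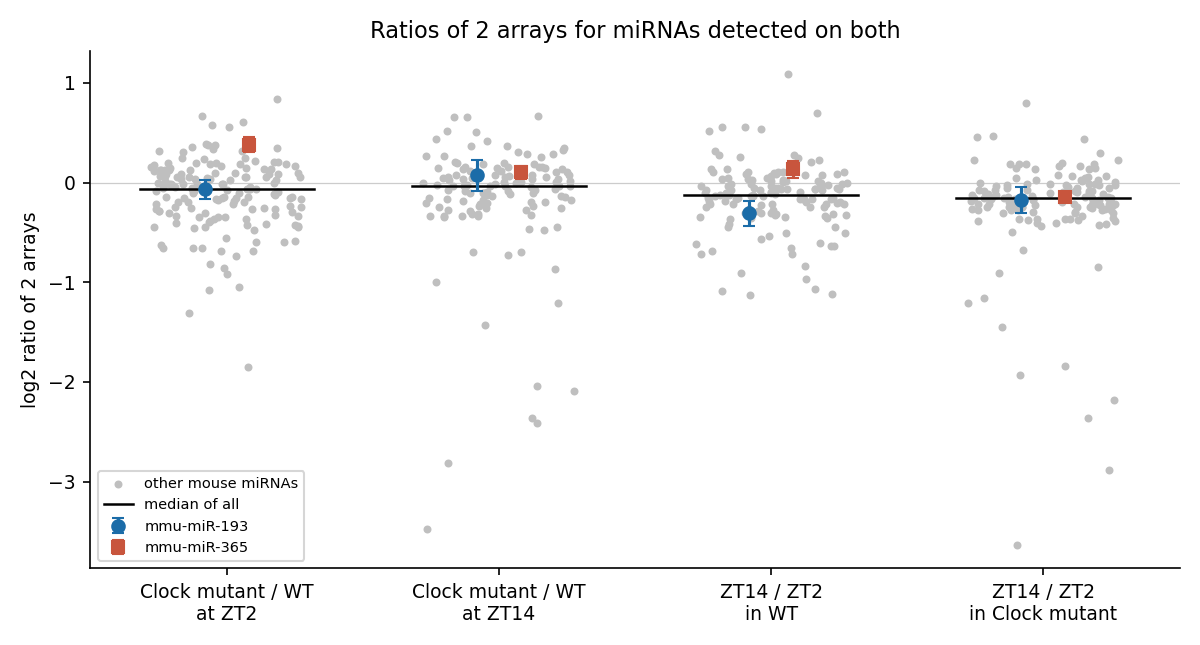
log2 ratio of 2 arrays (y axis) for every mouse miRNA detected on both, in the 4 comparisons (x axis). Grey points are the other miRNAs, black lines the median of all, and the blue circle and red square are mmu-miR-193 and mmu-miR-365 with the spot SD of the ratio. mmu-miR-365 lies above 153 of 160 miRNAs in the comparison of mutant with WT at ZT2, and mmu-miR-193 lies on the median there.

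Over all 4 arrays, genotype and time were tested with an additive limma fit to the 123 miRNAs, which leaves 1 residual degree of freedom per miRNA. With 1 array per group, this residual holds any difference of the genotype effect between the times. The SE, intervals and p-values rest on it and on a spread shared over the 123 miRNAs. They do not measure the spread between replicate pools. For mmu-miR-365 the difference of mutant from WT was 0.24 on the log2 scale (SE 0.14, 95% interval -0.16 to 0.64, limma adjusted p = 0.53, higher in the mutant at 2 of 2 times). For mmu-miR-193 it was 0.002 (SE 0.13, 95% interval -0.36 to 0.36, limma adjusted p = 0.99, with opposite signs at ZT2 and ZT14). Neither passed the threshold of 0.05, and neither did any other miRNA, so 0% of those tested were called, with 10 of 123 at an unadjusted p under 0.05. In other settings the limma count for genotype reached 3 with the sum over detected probes, 6 with normexp and 7 without the mutant array at ZT2. For mmu-miR-365, 37 of the 123 had a lower p. With the authors' log2 values in the same limma fit, mmu-miR-193 (0.74) and mmu-miR-365 (0.98) were both called at an adjusted p of 0.033, along with most others: 79 of the 123 were called there, and the median difference of all was 0.70.

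The difference of ZT14 from ZT2 in the same fit was -0.24 for mmu-miR-193 (SE 0.13, 95% interval -0.60 to 0.12, limma adjusted p = 0.52, lower at ZT14 in 2 of 2 genotypes). For mmu-miR-365 it was -0.003 (SE 0.14, 95% interval -0.40 to 0.39, limma adjusted p = 0.98). Again 0% of the 123 miRNAs were called for time, with 12 at an unadjusted p under 0.05. The limma count for time was 1 without the mutant array at ZT14, 3 with normexp, 5 without scaling, 5 with spike-in scaling and 13 without the WT array at ZT14, and neither member was among those called. All 4 intervals hold 0 and values on both sides of it, and their width means that the fit does not show that levels were alike.

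**Figure D4:**
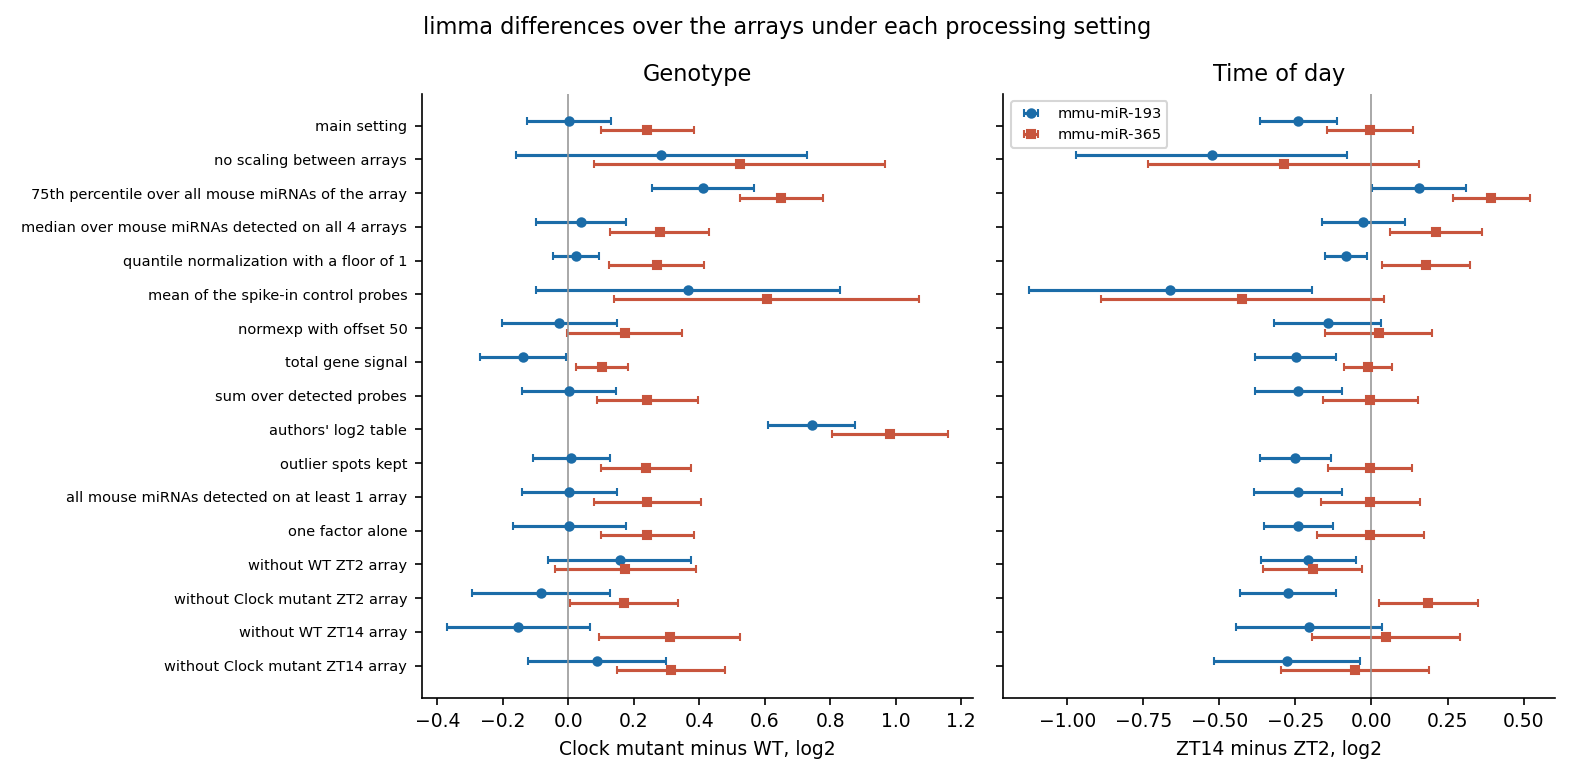
limma difference of *Clock* mutant from WT (left) and of ZT14 from ZT2 (right) on the log2 scale (x axes) for mmu-miR-193 (circles) and mmu-miR-365 (squares) under each processing setting (y axis). Bars are the SE of the fit. The genotype difference of mmu-miR-365 is above 0 in all settings drawn, and its time difference lies on both sides of 0.

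The relation between the miRNAs on the same array does not depend on scaling by 1 factor per array. The log2 difference of mmu-miR-365 and mmu-miR-193 was 0.45 higher in the mutant at ZT2 than in WT at ZT2 (spot SD 0.12), 0.45 higher in WT at ZT14 (spot SD 0.15) and 0.48 higher in the mutant at ZT14 (spot SD 0.15). The other three arrays lay within 0.03 of each other, so WT at ZT2 alone stood apart, with less mmu-miR-365 relative to mmu-miR-193. Each of the 4 pairings of 1 probe of mmu-miR-365 with 1 probe of mmu-miR-193 gave this, by 0.42 to 0.53 for mutant against WT at ZT2 and by 0.42 to 0.56 for ZT14 against ZT2 in WT. With normexp background correction these differences were smaller, at 0.35 and 0.32. Quantile normalization is not a scaling by 1 factor. It gave mutant to WT ratios at ZT2 of 0.45 for mmu-miR-365 and -0.06 for mmu-miR-193. Its ratios of ZT14 to ZT2 in WT were 0.36 and -0.17. Without these alternatives, the same pairings of probes gave -0.03 to 0.05 for mutant against WT at ZT14. For ZT14 against ZT2 in the mutant they gave 0.02 to 0.03. With 1 array per group this rests on the single WT array at ZT2, and whether it exceeds the spread between pools of mice cannot be tested.

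Other miRNA families that occur as clusters at 2 genomic places were set beside them. miR-192 and miR-194, abundant liver miRNAs, were detected on all 4 arrays, and miR-215, a relative of miR-192, on 0. miR-23a, miR-23b, miR-24, miR-27a and miR-27b were detected on all 4 arrays. The log2 difference of miR-194 and miR-192 moved over a range of 0.14 across the 4 arrays, that of miR-24 and miR-23b over 0.06, that of miR-24 and miR-27b over 0.07, that of miR-23b and miR-27b over 0.08 and that of miR-23a and miR-27a over 0.17. For mmu-miR-365 and mmu-miR-193 the range was 0.48. The largest of the 5 other ranges was thus less than that of mmu-miR-365 and mmu-miR-193, a difference that was not tested. It also depends on the pairs chosen, since miR-24 was not paired with miR-23a or miR-27a. From WT to the mutant at ZT2, miR-24 changed by 0.13 and miR-27a by -0.17, which is further apart than any of the 5 pairs moved.

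**Figure D5:**
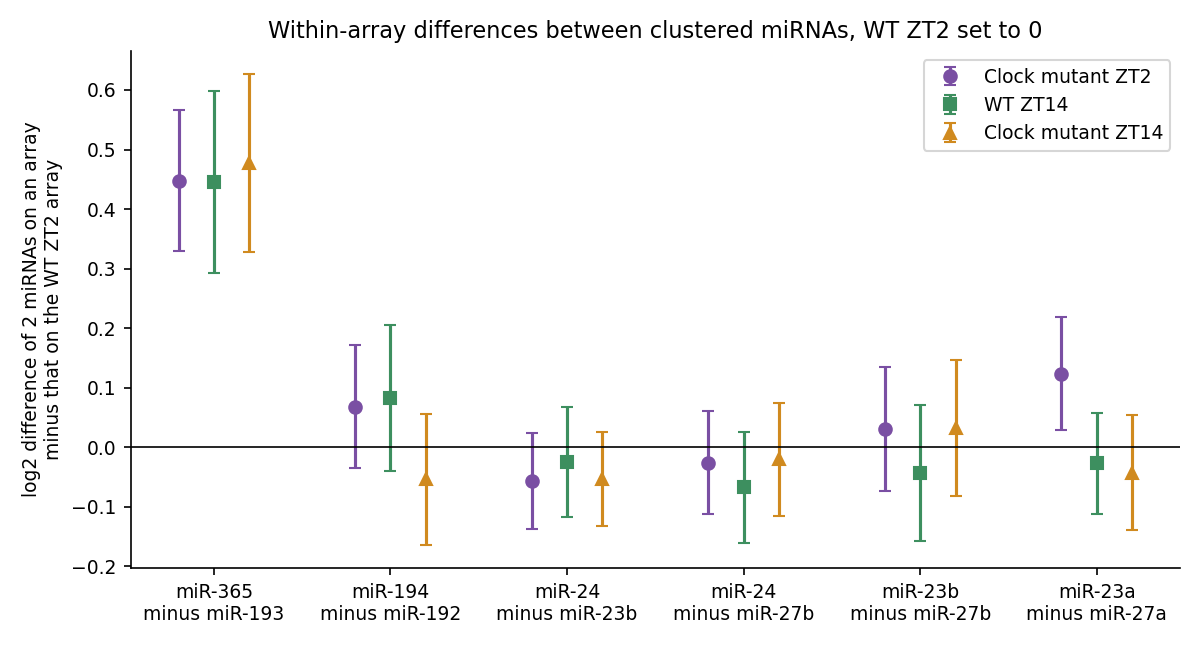
log2 difference of 2 miRNAs on an array minus the same difference on the WT array at ZT2 (y axis), for mmu-miR-365 and mmu-miR-193 and for 5 pairs of other clustered miRNAs (x axis). Symbols are the 3 other arrays and bars the spot SD. mmu-miR-365 minus mmu-miR-193 lies between 0.45 and 0.48 on all 3 arrays, while the 5 other pairs drawn stay between -0.07 and 0.12.

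Set against WT at ZT2, the mutant array gave log2 ratios of 0.18 for miR-23b, 0.17 for miR-194, 0.15 for miR-27b, 0.13 for miR-24 and 0.10 for miR-192. In the same comparison miR-23a gave -0.04 and miR-27a -0.17. All of these were smaller than the 0.38 of mmu-miR-365.

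Among the 122 other miRNAs detected on all 4 arrays, the nearest profiles were found by the root mean square difference of log2 signals after each was centred on its own mean over the 4 arrays. The 3 nearest to mmu-miR-193 were miR-152 (0.03), miR-338-3p (0.03) and miR-350 (0.04), against a median over all of 0.15. The 3 nearest to mmu-miR-365 were let-7b (0.04), let-7c (0.04) and miR-25 (0.06), against a median of 0.20. mmu-miR-365 itself was 0.20 from mmu-miR-193 and ranked 83 in nearness to it. In the other direction, mmu-miR-193 ranked 58 in nearness to mmu-miR-365, close to the median of 0.20. The likeness is a description over 4 arrays that share a slide, and let-7b and let-7c have near-identical sequences that an array may not tell apart.

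Muscle, bile duct epithelium and leukocyte markers were detected in the largest number in WT at ZT2. That array also detected the most mouse miRNAs of any kind, 193 of 611, against 161 in the mutant at ZT2. The ZT14 arrays detected 138 in WT and 142 in the mutant. Whether the small gains in detected bile duct and leukocyte markers exceed this wider detection was not tested. Summed signals given in units are before scaling. Of 4 muscle miRNAs, 3 were detected there (miR-1, miR-133a and miR-133b, not miR-206) and 0 on the other 3 arrays, with a summed signal of 165 units in WT at ZT2. Of 5 bile duct epithelium miRNAs, 4 were detected in WT at ZT2 and 2 to 3 on the other arrays, with summed signals of 121 units and 27.6 to 82.7 units, and miR-200c was detected on none. Of 5 leukocyte miRNAs, 3 were detected in WT at ZT2 and 2 on each other array, with a summed signal of 642 units there and 208 to 379 units on the others, and miR-150 and miR-155 were detected on none. Of 4 adipocyte and mesenchymal miRNAs, 2 were detected on each WT array and 1 on each mutant array, with miR-145 and miR-196a not detected on any array. Red blood cell miRNAs moved with the mutant array at ZT2: all 3 were detected there and 2 on each other array, with summed signals of 2989 units against 999 to 1784 units. The part of these cells in the values of mmu-miR-193 and mmu-miR-365 was not tested, and in liver RNA fewer cells of a type and less miRNA per cell cannot be told apart.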

How the data were processed

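Pooled liver RNA from both genotypes and both times was hybridized to 4 arrays, 1 pool of 3 mice each, on 1 slide. The authors deposited the output of Agilent Feature Extraction 10.7.1.1, with a background-subtracted intensity per spot, a total signal per miRNA and detection flags. A deposited table gives log2 values by miRNA, and its ZT14 columns carry no usable scaling against its ZT2 columns. The methods name Agi4x44PreProcess and a 2-fold threshold and state no scaling.

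Intensities were averaged over spots without outlier flags (3.18% to 3.37% of miRNA spots were flagged), then over probes, scaled to each array's 75th percentile across the 123 mouse miRNAs that all 4 arrays detected, and log2 transformed. Ratios of 2 arrays carry the SD between single spots, pooled within probes, as a measure of technical spread and no test. It is not the error of the mean over the spots, which is smaller and was not computed. The number of arrays limits the precision. Genotype and time were fitted with limma 3.58.1 in R 4.3.3 (additive design, Benjamini-Hochberg adjustment over the 123), after a test on simulated data. Other steps used Python 3.11.15, numpy 2.4.6, pandas 2.3.3 and matplotlib 3.10.9.

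Alternatives were other scalings, quantile normalization with a floor of 1, normexp with an offset of 50, the total gene signal, a sum of detected probes, the deposited table, outlier spots kept, all miRNAs detected on at least 1 array, 1 factor alone and each array left out. The miRNAs named are the members, the other arm of their precursors, miRNAs with the same seed, clusters at 2 genomic places (miR-192, miR-194, miR-215; miR-23, miR-24, miR-27), the 3 nearest profiles and lists of hepatocyte, red blood cell, leukocyte, muscle, bile duct epithelium and adipocyte and mesenchymal markers. Members and lists were chosen with earlier results of these data known. Sequences and gene places came from RefSeq (GRCm38.p6) and were matched by name, 3 of 3 members.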

Additional observations from a re-analysis of the deposited data

Results flagged for a closer look

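The ratio of mutant to WT for mmu-miR-193 had opposite signs at the times compared, with -0.067 at ZT2 and 0.071 at ZT14 as log2 values. Both values were within the SD between spots, and the difference between the times was not tested, since each rests on 1 array per group.

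Under the scaling used for the main results, the ratio of ZT14 to ZT2 for mmu-miR-365 had opposite signs in the genotypes. The log2 values were 0.14 in WT and -0.14 in the mutant. Both exceeded the SD between spots (0.09 and 0.05), and the difference between the genotypes was not tested. It equals the difference of the mutant to WT ratios at ZT2 and ZT14. Under the same scaling this was 0.28 for mmu-miR-365, with 23 of 123 miRNAs higher. Both ratios of ZT14 to ZT2 were negative without scaling (-0.52 in WT, -0.05 in the mutant) and with spike-in scaling (-0.69 and -0.16). Both were positive with the median of the 123 miRNAs as the scale (0.36 and 0.06). The mutant to WT ratio was smaller at ZT2 than at ZT14 without scaling (0.29 and 0.76) and with spike-in scaling (0.34 and 0.87). It was larger at ZT2 in the other alternatives.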

How the results depend on the processing

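Of 153 values recomputed under alternatives, 104 moved by less than the spot spread or, in limma, kept their direction and their side of the threshold. Among them, 1 turned sign: the ratio of mutant to WT for miR-193 at ZT14 was -0.014 with normexp. Only scale-free values are firm against scaling by 1 factor per array. The differences between changes of miR-365 and miR-193 stayed within the spot spread in all 3 alternatives run. Of these 3, the total gene signal returned the main values and so added no check, and quantile normalization was not among them. miR-193b was detected on 0 arrays under each call. The values outside the 104 moved as follows, on the log2 scale. The cause was not tested unless the scaling itself sets it.

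Scaling moved the median of the 123 miRNAs: in the ratio of mutant to WT at ZT14 from -0.03 to 0.63 without scaling and 0.73 with spike-in scaling, and at ZT2 to 0.80 with the authors' table. Without scaling, miR-193 was 0.73 (mutant to WT at ZT14) and -0.97 (ZT14 to ZT2 in WT), and miR-365 was 0.29 at ZT2, 0.76 at ZT14, -0.52 over time in WT and -0.053 over time in the mutant. With the percentile taken across all 611 mouse miRNAs, miR-193 was 0.24 at ZT2, 0.58 at ZT14, -0.014 over time in WT and 0.33 over time in the mutant, miR-365 was 0.69, 0.61, 0.43 and 0.36 in the same order, and the limma time differences became 0.16 (miR-193) and 0.39 (miR-365). With the median of the 123 miRNAs as the scale, the ratios over time were -0.087 in WT and 0.035 in the mutant for miR-193 and 0.36 and 0.064 for miR-365, and the limma time difference of miR-365 was 0.21. With quantile normalization these were -0.17 and 0 for miR-193, 0.36 and 0 for miR-365, and 0.18. With spike-in scaling, miR-193 was 0.84 at ZT14 and -1.13 over time in WT, and miR-365 was 0.87 and -0.69.

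With normexp, miR-193 was -0.16 over time in WT, miR-365 was 0.037 at ZT14, the limma genotype difference of miR-193 was -0.028 and the time difference of miR-365 was 0.024. With the total gene signal, miR-193 was -0.29 at ZT2, miR-365 was 0.16 at ZT2, 0.042 over time in WT and -0.066 over time in the mutant, and the genotype difference of miR-193 was -0.14. In the authors' table, miR-193 was 0.74 at both times and miR-365 was 1.19 at ZT2 and 0.78 at ZT14. Their limma genotype differences there were 0.74 and 0.98, each with an adjusted p of 0.033, in a table where the median of the 123 miRNAs was 0.70 and 79 were called. The authors' table was not run for comparisons over time. 

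Leaving out 1 array in turn (3 arrays, 1 factor, the lone array of a group assumed to vary like the others) gave genotype differences of -0.15 to 0.16 for miR-193 and 0.17 to 0.31 for miR-365, and time differences of -0.28 to -0.20 and -0.19 to 0.19. The genotype difference of miR-193 was below 0 without the mutant array at ZT2 (-0.08) or the WT array at ZT14 (-0.15), and the time difference of miR-365 above 0 without the same arrays (0.19 and 0.05). No paired analysis was possible because each group had 1 array. Signal over background limits miR-193b and the other arm of Mir193a to a bound.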
